A study of Mus musculus with 8 samples.

Results

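Dentate gyrus granule cells were followed through 10 genes that mark them, Prox1, Stxbp6, Npnt, Rfx3, Calb1, Dsp, C1ql2, C1ql3, Tdo2 and Glis3, in bulk hippocampal RNA of Dclk3 knockout (KO) and wild-type (WT) mice. The genes were taken by name, as known markers of this cell type. All 10 were present among the 31417 genes of the count table, and all 10 passed the filter on low counts that left 16228 genes for testing. The study held 4 KO and 4 WT libraries of poly(A) RNA, each from 1 hippocampus of mice aged 12 months, and genotype was its sole contrast. Which part of Dclk3 was deleted, and the strain, sex and litter of the mice, could not be read from the labels. Nothing states that the 4 libraries of a group came from separate animals, so p-values measure the spread between these libraries, which may in part be technical.

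Granule cells are the principal neurons of the dentate gyrus, the first station of the hippocampal circuit. They receive input from the entorhinal cortex, and their axons, the mossy fibres, end in large synapses on hilar mossy cells and CA3 pyramidal cells. They are among the few neurons that are still generated in the adult mouse brain. The 10 genes cover the nucleus (Prox1, Rfx3, Glis3), the cytoplasm and vesicle fusion (Calb1, Stxbp6), secreted synaptic proteins (C1ql2, C1ql3), the matrix and cell junctions (Npnt, Dsp) and tryptophan breakdown (Tdo2). None of these transcripts is made by granule cells alone: Prox1 and Calb1, for example, are also made by some GABA neurons. In bulk tissue, fewer cells of a type and less RNA per cell cannot be told apart.

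The start sites of these genes were laid out from RefSeq (GRCm38.p6, the build of the mm10 counts), where 9 of the 10 matched by symbol, all but Calb1, with 11 windows of 250 bases upstream of an annotated start. The windows were searched on both strands for the E-box CANNTG, the core that basic helix-loop-helix factors of neurons read, and for TGACGTCA, GTTGCC and TATAAA. An E-box lay in 6 of the 11 windows, against 66.2% of all 32851 windows in the table. TATAAA lay in 2 windows, against 12.4% of all, and TGACGTCA and GTTGCC lay in none of the 11, against 1.55% and 10.4% of all. The form CACTTG, one of those that CANNTG covers, was singled out after the windows were read, and lay in 4 of the 11 windows, against 11.6% of all. It was the form of both E-boxes upstream of Stxbp6 and of the single E-box upstream of C1ql2 and of C1ql3, and it occurred on the other strand upstream of Prox1. These letters are a description, and no binding was measured. The windows of Stxbp6 (chr12:45074484-45074733, minus strand), C1ql2 (chr1:120340332-120340581, plus strand) and C1ql3 (chr2:13010865-13011114, minus strand) are shown because they share this form, with CANNTG matches in capitals. The window of Tdo2 (chr3:81975729-81975978, minus strand), the gene that varied most between libraries, had no E-box and is shown with TATAAA in capitals. Each reads 5′ to 3′ towards its RefSeq start. By the gene positions given below, the windows of C1ql3 and Tdo2 lie wholly inside the gene, and that of Stxbp6 mostly so. A window of Prox1 and a window of Npnt, not shown, also lie inside the gene. These windows are thus upstream of a RefSeq start but not of the whole gene.
Stxbp6: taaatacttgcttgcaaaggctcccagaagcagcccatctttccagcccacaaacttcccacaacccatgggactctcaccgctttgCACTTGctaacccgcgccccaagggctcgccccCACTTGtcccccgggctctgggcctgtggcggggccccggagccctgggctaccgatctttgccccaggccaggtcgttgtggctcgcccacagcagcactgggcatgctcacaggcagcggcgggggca
C1ql2: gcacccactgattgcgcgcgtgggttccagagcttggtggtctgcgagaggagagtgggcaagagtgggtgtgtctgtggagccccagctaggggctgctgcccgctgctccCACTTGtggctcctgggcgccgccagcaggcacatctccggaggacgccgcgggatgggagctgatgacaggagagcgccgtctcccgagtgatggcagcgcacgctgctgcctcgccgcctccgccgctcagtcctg
C1ql3: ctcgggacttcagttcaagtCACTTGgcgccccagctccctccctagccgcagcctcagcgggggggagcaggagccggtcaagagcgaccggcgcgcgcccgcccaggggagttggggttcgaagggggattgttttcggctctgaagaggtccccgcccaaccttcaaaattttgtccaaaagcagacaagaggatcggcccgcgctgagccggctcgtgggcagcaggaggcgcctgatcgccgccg
Tdo2: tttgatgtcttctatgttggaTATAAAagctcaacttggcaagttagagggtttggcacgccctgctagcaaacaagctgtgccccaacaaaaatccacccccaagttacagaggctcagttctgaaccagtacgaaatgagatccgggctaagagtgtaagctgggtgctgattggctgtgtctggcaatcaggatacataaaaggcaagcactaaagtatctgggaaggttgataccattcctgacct

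Total counts per library ran from 29301974 to 36552757, so that 1 count equalled 0.0272 to 0.0346 CPM (counts scaled to the library's effective total, as edgeR's cpm gives them). The lowest count of any of the 10 genes in any library was 45, for Tdo2 in WT replicate 2, with an exact Poisson 95% interval of 32.8 to 60.2 counts that covers counting error alone. Dclk3, the targeted gene, had 8.19, 9.29, 5.92 and 7.45 CPM in KO replicates 1 to 4 and 23.0, 39.3, 20.8 and 23.5 CPM in WT replicates 1 to 4, so the genotypes did not overlap. Its log2 fold change (KO over WT) was -1.79 (SE 0.22), with an edgeR Benjamini-Hochberg adjusted p of 0.234 and a DESeq2 adjusted p of 3.93e-13. WT replicate 2 stood apart from the other libraries. It lay at 35.8 on the first principal component, where the other 7 lay between -26.1 and 15.0, and its Gfap, an intermediate filament gene of reactive astrocytes, was at 1805 CPM, against 500.1 to 578 CPM in KO and 442 to 567 CPM in the other WT libraries. Where leaving out this library moved the fold change of one of the 10 genes by over 1.5 times, the value without it is also given.

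Levels between the 10 genes were compared per length, as CPM per kilobase of exon. The secreted C1ql2 and C1ql3 stood highest, at 41.5 ± 5.47 and 37.0 ± 3.32 (mean ± SD over 8 libraries). Stxbp6 and Calb1 followed at 29.0 ± 3.83 and 28.8 ± 1.92. The transcription factor genes Prox1 and Rfx3 formed a middle pair at 13.7 ± 1.10 and 12.6 ± 1.51. Npnt had 6.47 ± 0.650, Dsp 4.84 ± 0.827, Glis3 2.24 ± 0.346 and Tdo2 2.01 ± 0.839. Neighbours inside the pairs were close. Prox1 was above Rfx3 in 7 of 8 libraries. C1ql2 was above C1ql3 in 5 of 8 libraries, Stxbp6 above Calb1 in 4 and Glis3 above Tdo2 in 4, with overlapping ranges in each of these pairs. Calb1 and Prox1, Rfx3 and Npnt, and Dsp and Glis3 did not overlap in any library.

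**Figure D1:**
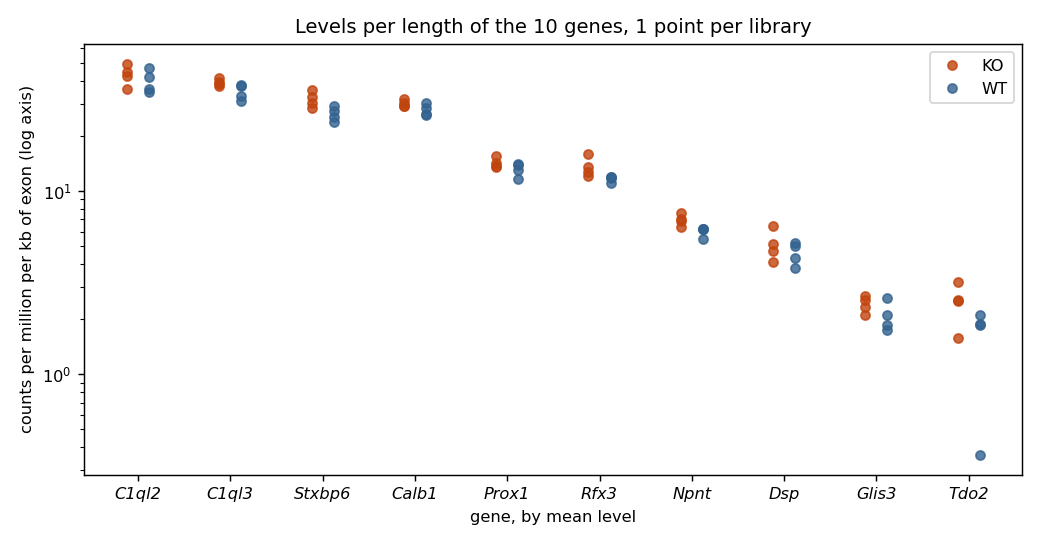
Levels per length of the 10 genes, in CPM per kilobase of exon on a log axis, with 1 point per library (KO left, WT right of each gene). C1ql2 and C1ql3 lie highest and Glis3 and Tdo2 lowest, and the lone low point is Tdo2 in WT replicate 2.

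The question for each gene was whether its level differed between KO and WT hippocampus. Over all 16228 genes, edgeR's quasi-likelihood test called 0 at an adjusted p under 0.05 (0%), and none of the 10 granule cell genes was called. DESeq2 called 5 genes (0.0308% of those it tested) and limma-voom called 0 (0%), again none of the 10. At an unadjusted p under 0.05, edgeR had 1000 genes (6.16%), of which 643 were higher in KO (3.96% of all tested). Among the 10 genes, 3 met that unadjusted level, Stxbp6, Npnt and Rfx3, each with the higher mean in KO. All 10 fitted values lay above 0, against 50.1% of all genes tested, with a median of 0.18 against 0.00 over all genes. The ranges of KO and WT were apart for 2 of the 10, Npnt and Rfx3, against 3.8% of all genes tested, and both were higher in KO, against 1.88% of all. The lowest adjusted p among the 10 was 0.796 in edgeR, 0.554 in DESeq2 and 0.468 in limma-voom. The 10 genes were chosen with earlier results of these data known, so these shares describe them and are not a test of the group.

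**Figure D2:**
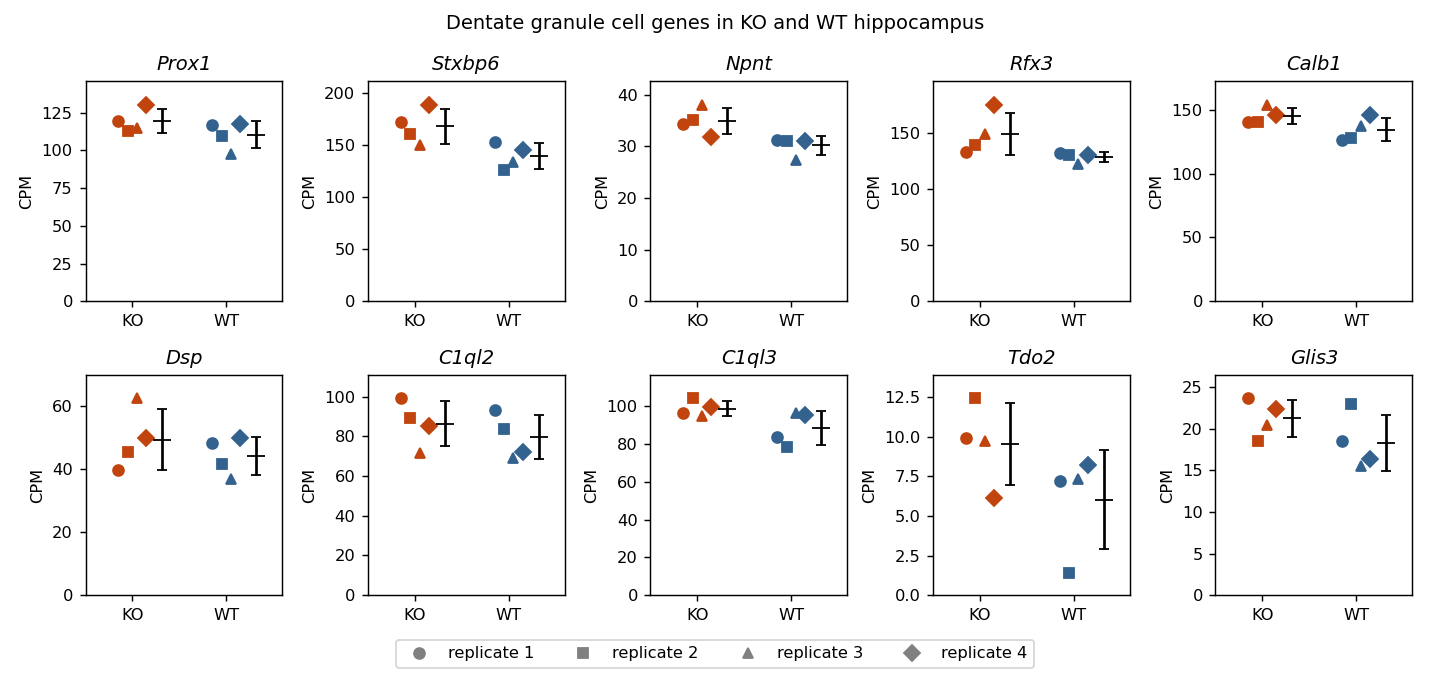
CPM of the 10 genes by library, KO left and WT right in each panel, with the mean and SD (n = 4) beside the points and the axis starting at 0. KO and WT points are apart for Npnt and Rfx3 and overlap for the other 8 genes.

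The transcription factor genes come first. Prox1 (ENSMUSG00000010175, mm10 1:190118035-190170714, minus strand) encodes the homeodomain protein that sets and keeps granule cell identity. It had 119, 113, 115 and 130.3 CPM in KO replicates 1 to 4 and 117, 109.7, 97.8 and 117 CPM in WT replicates 1 to 4. The 2 highest values were in KO and the 2 lowest in WT, but KO replicates 2 and 3 lay inside the WT range. On the log2 scale KO over WT was 0.11 (SE 0.07; 95% interval -0.05 to 0.28; edgeR Benjamini-Hochberg adjusted p = 0.799), and 0.066 to 0.14 with single libraries left out. Exons of Prox1 overlap those of the antisense gene Prox1os, which held 95 to 187 counts, against 3045 to 4391 for Prox1. The kit marked strand, but the strand setting of the counting is not stated in the sources, so reads of the overlapping exons cannot be told apart.

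Rfx3 (ENSMUSG00000040929, mm10 19:27761721-28011166, minus strand) encodes a winged-helix factor best known for driving genes of cilia. Its KO libraries had 133, 139.6, 149.6 and 176 CPM and its WT libraries 132, 130.3, 122 and 131 CPM. Every KO library was above every WT library, although KO replicate 1 and WT replicate 1 were close together and KO replicate 4 stood far above the rest. Means were 149.5 ± 18.6 CPM in KO and 129 ± 4.42 CPM in WT (SD, n = 4 each). This gave a log2 fold change of 0.21 (SE 0.08; 95% interval 0.03 to 0.40; edgeR adjusted p = 0.796), and without KO replicate 4 it was 0.13.

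Glis3 (ENSMUSG00000052942, mm10 19:28258851-28680077, minus strand) encodes a Krüppel-like zinc finger factor and lies on the same chromosome as Rfx3. It had 23.6, 18.5, 20.4 and 22.3 CPM in KO and 18.5, 22.9, 15.5 and 16.3 CPM in WT. WT replicate 2 was the second highest of the 8 libraries, while the other 3 WT libraries were below the lowest KO library. Its fitted log2 fold change was 0.21 (SE 0.13; 95% interval -0.07 to 0.49; edgeR adjusted p = 0.796), and without WT replicate 2 it was 0.34.

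Stxbp6 (ENSMUSG00000046314, mm10 12:44852484-45074709, minus strand) encodes amisyn, which binds the SNARE proteins of vesicle fusion. Its KO libraries had 172, 161, 150.1 and 189 CPM and its WT libraries 153, 126, 134 and 146 CPM. KO replicate 3 lay below WT replicate 1, and the other 3 KO libraries lay above all of WT. The log2 fold change of 0.27 (SE 0.09; 95% interval 0.08 to 0.46; edgeR adjusted p = 0.796) corresponds to a mean 20.3% higher in KO. Calb1 (ENSMUSG00000028222, mm10 4:15881264-15908064, plus strand) encodes calbindin, the calcium buffer that fills granule cell bodies and mossy fibres. It had 140.2, 140.5, 154 and 146 CPM in KO and 127, 128, 137 and 146 CPM in WT. WT replicate 4 reached into the KO values, and 3 WT libraries lay below all of KO. Calb1 had the tightest spread of the 10, with a log2 fold change of 0.11 (SE 0.06; 95% interval -0.03 to 0.25; edgeR adjusted p = 0.796).

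C1ql2 and C1ql3 encode secreted proteins of the C1q family that granule cells release at mossy fibre synapses. C1ql2 (ENSMUSG00000036907, mm10 1:120340582-120343174, plus strand) had 99.1, 89.4, 71.9 and 85.0 CPM in KO and 93.3, 84.0, 69.2 and 72.4 CPM in WT. The groups overlapped almost throughout, with KO replicate 3 near the lowest WT values. KO over WT on the log2 scale was 0.12 (SE 0.12; 95% interval -0.14 to 0.37; edgeR adjusted p = 0.863), and 0.047 to 0.20 with single libraries left out. C1ql3 (ENSMUSG00000049630, mm10 2:13003457-13011806, minus strand) had 96.7, 104, 94.9 and 99.5 CPM in KO and 84.0, 78.4, 96.5 and 95.3 CPM in WT. The 4 KO values were close together, and WT held a lower pair, replicates 1 and 2, and a pair inside the KO range. For C1ql3 the log2 fold change was 0.16 (SE 0.07; 95% interval -0.01 to 0.32; edgeR adjusted p = 0.796). Per length, the ratio of C1ql2 to C1ql3 was 1.30, 1.09, 0.960 and 1.08 in KO and 1.41, 1.36, 0.910 and 0.963 in WT. The balance of the pair thus varied more inside WT than between the genotypes, whose mean ratios were 1.11 ± 0.141 in KO and 1.16 ± 0.260 in WT (SD, n = 4 each). The antisense genes Gm37811 and Gm37824, whose exons overlap C1ql3, held 15 to 40 and 1 to 9 counts.

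Npnt (ENSMUSG00000040998, mm10 3:132881745-132950291, minus strand) encodes nephronectin, a matrix protein that binds the integrin made from Itga8 and Itgb1. Its KO libraries had 34.4, 35.2, 38.1 and 31.9 CPM and its WT libraries 31.3, 31.0, 27.3 and 31.1 CPM. All KO libraries lay above all WT libraries, the nearest pair being KO replicate 4 and WT replicate 1. Means were 34.9 ± 2.56 CPM in KO and 30.2 ± 1.91 CPM in WT (SD, n = 4 each), a log2 fold change of 0.21 (SE 0.07; 95% interval 0.05 to 0.37; edgeR adjusted p = 0.796). Dsp (ENSMUSG00000054889, mm10 13:38151294-38198577, plus strand) encodes desmoplakin, which ties desmosomes to intermediate filaments. It had 39.7, 45.4, 62.5 and 49.8 CPM in KO and 48.2, 41.5, 36.7 and 49.9 CPM in WT. The groups overlapped, and KO replicate 3 alone was above all of WT. Its log2 fold change was 0.16 (SE 0.14; 95% interval -0.16 to 0.48; edgeR adjusted p = 0.843), and without KO replicate 3 it was 0.025.

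Tdo2 (ENSMUSG00000028011, mm10 3:81957090-81976202, minus strand) encodes tryptophan dioxygenase, which opens the tryptophan ring at the entry to the kynurenine pathway. It had 9.90, 12.4, 9.76 and 6.11 CPM in KO and 7.21, 1.40, 7.32 and 8.20 CPM in WT. WT replicate 2 had 45 counts, far below the other 7 libraries with 191 to 376 counts, while KO replicate 4 was below the remaining WT libraries. Tdo2 was the most variable of the 10, with an 8.86-fold range over the 8 libraries, against 1.22-fold for Calb1 and up to 1.70-fold for the others. Its log2 fold change over all 8 libraries was the largest of the 10 and the least certain, at 0.66 (SE 0.46; 95% interval -0.39 to 1.71; edgeR adjusted p = 0.818). Without WT replicate 2 it was 0.337, just under the 0.343 of Glis3 without that library.

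**Figure D3:**
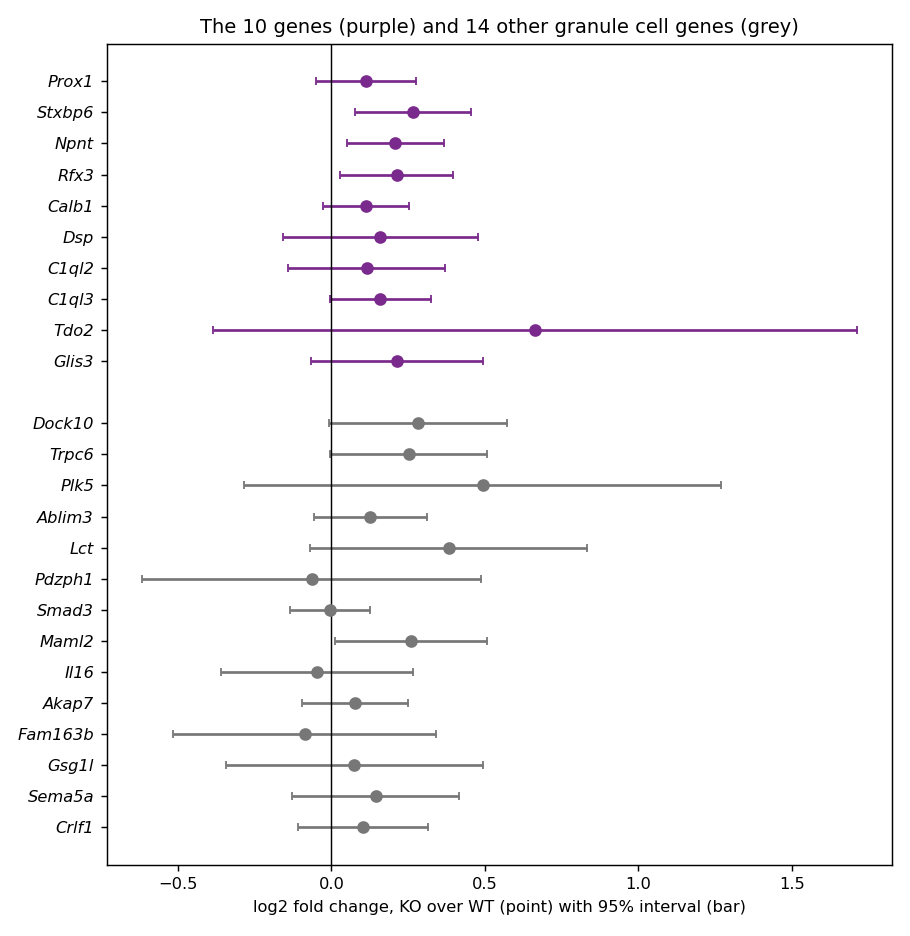
Fitted log2 fold change (KO over WT) with its 95% interval for the 10 genes and for 14 other granule cell genes. Points of the 10 genes lie between 0.11 and 0.66, and of their intervals those of Stxbp6, Npnt and Rfx3 lie wholly above 0.

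The genes did not vary as one block. Of the 10, 6 had their lowest value of the 8 libraries in WT replicate 3, 3 in WT replicate 2 and 1 in WT replicate 1. The highest value lay in KO for all 10, spread over KO replicates 1 to 4 as 2, 2, 3 and 3 genes. KO replicate 4 led for Prox1, Stxbp6 and Rfx3, KO replicate 3 for Npnt, Calb1 and Dsp, KO replicate 2 for C1ql3 and Tdo2, and KO replicate 1 for C1ql2 and Glis3. Centred on the 8 libraries, the mean log2 CPM of the 10 genes was 0.12, 0.12, 0.13 and 0.12 in KO replicates 1 to 4 and -0.01, -0.30, -0.16 and -0.01 in WT replicates 1 to 4. The KO means were nearly equal although different genes made them up. Tdo2 carried much of the low WT replicate 2 value. Without Tdo2, an alternative added after its values were seen, the means were 0.07, 0.04, 0.09 and 0.15 in KO and -0.02, -0.09, -0.19 and -0.05 in WT.

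**Figure D4:**
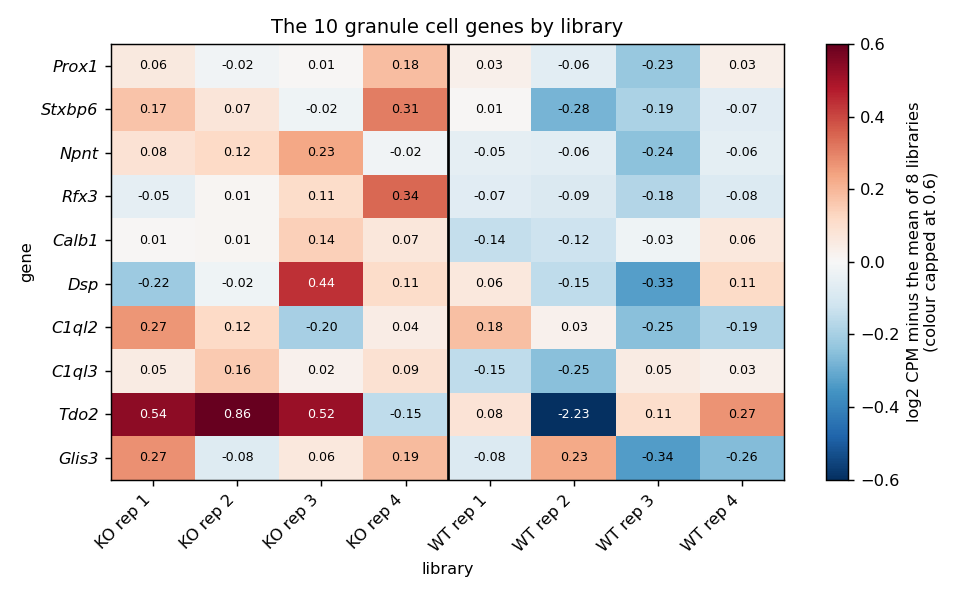
log2 CPM of each of the 10 genes minus its mean over the 8 libraries, KO columns left and WT columns right of the line. WT replicate 3 is the lowest library for 6 genes, and Tdo2 in WT replicate 2 is the lone value below -2.

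A further 14 genes known from granule cells were listed beside the 10. All 14 were tested and none was called by edgeR. Fitted values lay above 0 for 10 of the 14, and their median was 0.11 on the log2 scale (all genes tested: 50.1% above 0, median 0.00). At an unadjusted edgeR p under 0.05 there was 1 of the 14, Maml2 (6.16% of all genes), against 3 of the 10. Ranges of KO and WT were apart for 0 of the 14 (3.8% of all genes), against 2 of the 10. The 3 with the highest mean CPM were Fam163b, Sema5a and Smad3. Smad3, a mediator of TGF-beta signals, had 100.1 ± 6.93 CPM in KO and 100.4 ± 0.546 CPM in WT (SD, n = 4 each). Fam163b had 196 ± 13.0 CPM in KO and 208.7 ± 68.5 CPM in WT, where WT replicate 2 was at 309.8 CPM and the other 3 WT libraries at 161 to 190.2 CPM. Sema5a, a guidance semaphorin, had 183 ± 34.4 CPM in KO, with KO replicate 4 at 233 CPM, and 166 ± 14.8 CPM in WT. Maml2, a Notch coactivator, and Trpc6, a cation channel, had the lowest p of the 14. Maml2 had 25.4, 26.5, 32.9 and 35.6 CPM in KO and 26.2, 26.8, 22.6 and 24.98 CPM in WT (log2 fold change 0.26, SE 0.11; edgeR adjusted p = 0.796). Trpc6 had 22.1, 21.9, 19.999 and 23.1 CPM in KO and 21.9, 14.2, 18.6 and 18.4 CPM in WT (log2 fold change 0.25, SE 0.12; edgeR adjusted p = 0.796). For Maml2, 2 KO libraries lay inside the WT range and 2 above it, and for Trpc6 a single WT library reached into KO. Lct and Plk5 were named after their values were seen. WT replicate 2 split these genes, since 4 of the 14, among them Trpc6, Lct and Plk5, were lowest there and Fam163b was highest there. WT replicate 3 was lowest for 5 of the 14, and KO replicates 1, 2 and 4 for 1, 3 and 1. Plk5 had 4.52 CPM in WT replicate 2, against 13.1 to 19.4 CPM in KO and 12.6 to 16.3 CPM in the other WT libraries.

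Relatives and partners of the 10 genes were listed by role. Of the factors that share granule cell development, Neurod1 had 23.6 ± 3.92 CPM in KO and 20.8 ± 3.32 CPM in WT, and Neurod2 98.0 ± 6.50 CPM in KO and 127 ± 40.1 CPM in WT (SD, n = 4 each), where WT replicate 2 held 185 CPM and the other 3 WT libraries 97.7 to 121 CPM. In this list 4 of 6 genes were above 0 and none was called by edgeR. Partners and relatives of C1ql2 and C1ql3 at the synapse had 1 of 5 tested genes above 0, a median of -0.12 and none called. Among them Adgrb3, the adhesion receptor of the C1q-like proteins, had 137 ± 8.87 CPM in KO and 148 ± 8.60 CPM in WT, and Nrxn3, a presynaptic neurexin, 207 ± 37.7 CPM in KO and 240.0 ± 27.9 CPM in WT. Grik2 and Grik4, kainate receptor subunits, had 51.2 ± 5.13 and 77.9 ± 8.01 CPM in KO, against 53.7 ± 0.997 and 86.0 ± 8.14 CPM in WT. The 3 SNARE genes Snap25, Stx1a and Vamp2 had log2 fold changes of -0.06, -0.06 and -0.07, with none called.

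Itga8, whose product joins that of Itgb1 as the nephronectin receptor, had the lowest p among all partners. Its KO libraries had 22.0, 23.1, 18.4 and 20.3 CPM and its WT libraries 15.8, 13.2, 20.1 and 15.1 CPM. WT replicate 3 lay between the KO libraries, and the other WT libraries lay below all of KO. KO over WT was 0.38 on the log2 scale (SE 0.13; edgeR adjusted p = 0.796), beside 0.09 (SE 0.10) for Itgb1. Of 5 tested desmosomal genes 3 were above 0, with Pkp4 at 368 ± 21.2 CPM in KO and 355 ± 18.4 CPM in WT. Of 7 other RFX and GLIS family genes 3 were above 0, with a median of -0.05. Of 9 genes of tryptophan metabolism, 4 passed the filter. Among these Qprt, which acts late in the kynurenine pathway, had 1.08 ± 0.156 CPM in KO and 0.685 ± 0.391 CPM in WT, and Tph2, the serotonin-making hydroxylase of raphe neurons, 0.976 ± 0.132 CPM in KO and 1.42 ± 0.369 CPM in WT. None of the genes in these lists was called by edgeR.

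Other cell types of the tissue were measured with the same libraries. CA1 pyramidal cell markers had 1 of 8 above 0 with a median of -0.10, and CA3 and CA2 markers 4 of 11 with a median of -0.09. Markers of GABA neurons, some of which share Prox1 and Calb1 with granule cells, had 3 of 12 above 0 with a median of -0.13, and their summed level was 1453 to 1513 CPM in KO and 1525 to 1649 CPM in WT. At an unadjusted p under 0.05 there were 4 of the 12 (6.16% of all genes), and ranges were apart for 2 (3.8% of all genes), against 3 and 2 of the 10 granule cell genes. Gad1, the main GABA-making enzyme, had 368, 369, 393 and 374 CPM in KO and 405, 458, 424 and 439 CPM in WT, with every KO library below every WT library (log2 fold change -0.20, SE 0.06; edgeR adjusted p = 0.796). Htr3a, a serotonin receptor gene, was likewise below WT in every KO library, at 12.0 ± 0.598 CPM in KO and 14.7 ± 0.791 CPM in WT (SD, n = 4 each). Adarb2 and Vip were named after their values were seen and were exceptions in this list, where 9 of 12 genes lay below 0. The means of Adarb2 and Vip were higher in KO, and both genes overlapped between the groups. Adarb2 had 31.7 ± 3.34 CPM in KO and 25.9 ± 3.09 CPM in WT, and Vip 23.7 ± 2.45 CPM in KO and 20.6 ± 1.66 CPM in WT. Immature neuron and progenitor markers had 4 of 9 tested genes above 0 with a median of -0.02, and Dcx, which marks newborn granule cells, had 18.0 ± 3.35 CPM in KO and 18.3 ± 0.914 CPM in WT. Markers of mossy cells, the hilar targets of granule cells, had 2 of 5 above 0, although Csf2rb2 had 2.01 to 3.02 CPM in KO and 1.35 to 1.99 CPM in WT. Several lists lay mostly above 0, as the granule cell genes did. Markers of neocortical neurons had 5 of 6 above 0 with a median of 0.16, 2 at an unadjusted p under 0.05 (Scnn1a and Tbr1) and 1 with ranges apart (Scnn1a), and a summed level of 173 to 207 CPM in KO and 147 to 179 CPM in WT. Oligodendrocyte markers had 4 of 4 above 0 with a median of 0.16 and overlapping sums of 3340 to 3841 CPM in KO and 2802 to 3992 CPM in WT. Thalamus and habenula markers had 5 of 6 above 0 with a median of 0.13, and microglia markers 4 of 4 with a median of 0.04. Endothelial, ependymal, fibroblast and astrocyte markers had 3 of 4, 3 of 5, 3 of 6 and 2 of 4 above 0. No gene in these lists was called by edgeR, and their part in the levels of the 10 genes was not tested.

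The summed level of the 10 genes, which granule cells do not make alone, was also set against that of the CA1 markers within each library. The summed CPM of the 10 genes was 859 to 936 in KO and 744 to 813 in WT, and that of the 8 CA1 markers 923 to 1142 in KO and 1018 to 1216 in WT. Such sums weigh abundant genes most, here Stxbp6, Calb1, Rfx3 and Prox1, with means of 154, 140, 139 and 115 CPM over the 8 libraries. The ratio of the sums was 0.941, 0.905, 0.758 and 0.968 in KO and 0.784, 0.740, 0.713 and 0.669 in WT. KO replicate 3 lay below WT replicate 1, and the other 3 KO libraries lay above all of WT. The sums of the CA3 and CA2 markers, 305 to 381 CPM in KO and 350.3 to 391 CPM in WT, overlapped. The part of the CA1 level in these ratios was not tested. Markers of choroid plexus, which lies beside the hippocampus, were all present (8 of 8 above 0, median 0.36, none called) and differed widely inside each group, with sums of 187 to 3434 CPM in KO and 69.6 to 2201 CPM in WT. Their part in the results was not tested.

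**Figure D5:**
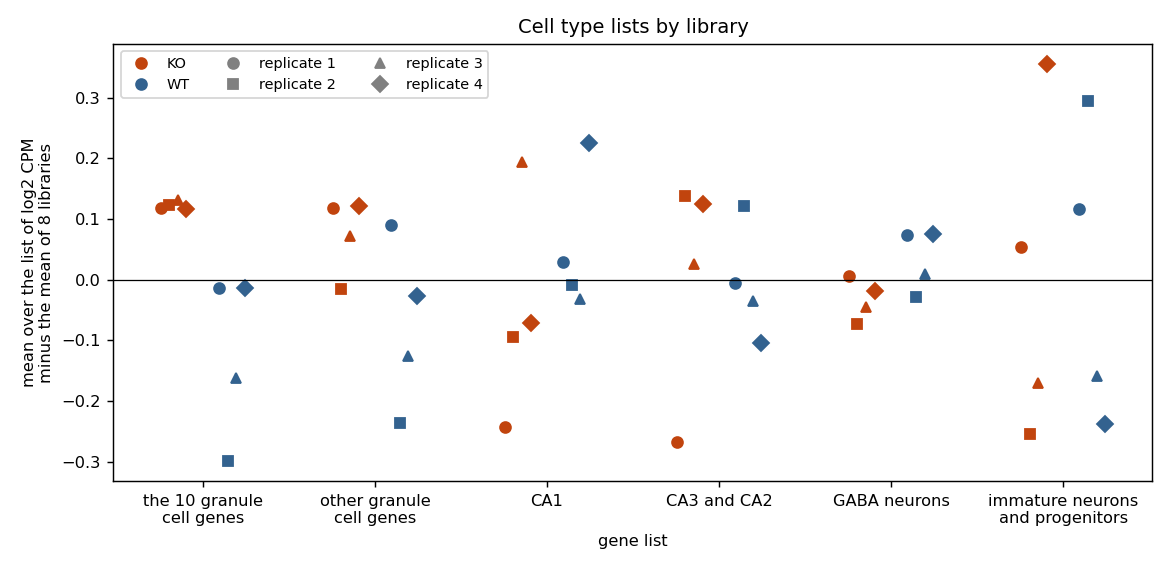
Mean over each gene list of log2 CPM minus the mean of the 8 libraries, 1 point per library, KO left and WT right for each list. The 10 granule cell genes lie between 0.12 and 0.13 in KO and between -0.30 and -0.01 in WT, while the other 5 lists overlap between the genotypes.

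Genes were then named by rule from 14137 with a mean of at least 1 CPM, skipping numbered Gm names, Rik names and genes without a symbol. The 8 named were those whose profile over the 8 libraries was most like the mean of the 10. They were Olfr287, Mkx, Map7, Adam1a, Hhatl, Wdr83, Camk2n1 and Map3k14, with Pearson r between 0.94 and 0.97 as a description over 8 libraries. Without WT replicate 2 the same genes had r of 0.85 to 0.93 and ranks of 11 to 64 among all 14137 genes, skipped names included. Camk2n1, an inhibitor of the kinase CaMKII, was the most abundant, at 874 ± 35.7 CPM in KO and 769 ± 81.0 CPM in WT (SD, n = 4 each). The microtubule-binding gene Map7 had 79.0 ± 2.78 CPM in KO and 69.5 ± 7.19 CPM in WT. None of the 14 other granule cell genes was among the 8. Of the 13 of them with at least 1 CPM, 11 had r above 0 and 6 lay at or above percentile 90 of the 14137 genes, with a median r of 0.49. Among all 14137 genes, an r of -0.016 lay at percentile 51, so an r near 0 was the middle. Fam163b went from -0.46 to 0.81 without WT replicate 2. Among markers of other cells, the 8 CA1 genes had a median r of -0.15 and none at or above percentile 90. The mossy cell genes Drd2, Nmb and Csf2rb2 had a median r of 0.44, and Calb2 of that list had -0.20. At or above percentile 90 were also Adarb2, Vip and Pvalb of the GABA neurons and Nmb of the mossy cells. The GABA genes apart from Pvalb had 4 of 11 r above 0 and a median of -0.17, with Gad1 at -0.88. Of the mossy cell genes, Drd2 had -0.56. Without WT replicate 2 the median r was 0.57 for the other granule cell genes and -0.09 for the CA1 genes. For the GABA genes apart from Pvalb it was -0.39. The mossy cell genes were split without that library, at -0.37 for Drd2, 0.58 for Nmb, 0.71 for Csf2rb2 and -0.49 for Calb2.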

How the data were processed

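The 8 libraries were made from poly(A) RNA with a strand-specific kit, per the labels' protocols. The authors deposited whole-number read counts per Ensembl gene, raw and without normalization, 1 column per library. The submitters' processing notes name bcl2fastq 2.17.1.14 and mm10. No aligner, counter, annotation or strand setting is given in the sources used here. Positions and exon lengths came from GENCODE M21 of the same build. The 10 genes and all lists were chosen with earlier results of these data known.

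Genotypes were tested with edgeR 4.0.16 (R 4.3.3; TMM scaling, filterByExpr, robust quasi-likelihood F test, Benjamini-Hochberg adjustment over all genes tested, threshold 0.05). CPM used the same scaling factors. Centred log2 CPM had a prior count of 2. SE is the fold change over the root of F, and 95% intervals use the test's degrees of freedom. DESeq2 1.42.0, limma 3.58.1 (voom with quality weights), other scalings and filters, and each library left out were alternatives. The scripts were tested on simulated data. Named genes were the 10, Dclk3, relatives and partners from fixed lists, and up to 3 genes per cell type list by mean CPM and 2 by p. The 8 genes most like the 10, skipping Gm, Rik and unnamed genes, were also named.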

Additional observations from a re-analysis of the deposited data

Results flagged for a closer look

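For 76 named genes, the 4 libraries of each genotype were searched for a library far from the other 3, which chance gives in about 1 group in 20. Of 152 groups, 13 held one, and 5 of these were WT replicate 2. Among the 10 granule cell genes, Tdo2 was low in WT replicate 2 at 1.40 CPM, against 7.21 to 8.20 CPM in the other WT libraries, and Npnt was low in WT replicate 3 at 27.3 CPM, against 31.0 to 31.3 CPM. In WT replicate 2, Dclk3 was also high at 39.3 CPM, against 20.8 to 23.5 CPM, and Gfap was high at 1805 CPM, against 442 to 567 CPM. Adarb2 and Scnn1a, markers of GABA and neocortical neurons, were low in that library at 21.3 CPM, against 27.1 to 27.8 CPM, and at 6.17 CPM, against 8.30 to 8.60 CPM. Nmb, a mossy cell marker, was high in KO replicate 4 at 2.85 CPM, against 2.18 to 2.28 CPM. Among other granule cell genes, Dock10, named after its values were seen, was high in WT replicate 1 at 104.7 CPM, against 81.4 to 82.3 CPM, and Gsg1l, named in the same way, was high in WT replicate 4 at 39.8 CPM, against 34.8 to 35.5 CPM. Among partners and markers of other cells, Adgrb3 was low in KO replicate 1 at 123 CPM, against 140.6 to 142 CPM, and Rgs14, a CA2 marker, was low there at 93.4 CPM, against 124 to 129 CPM. Jup was low in KO replicate 2 at 33.9 CPM, against 36.2 to 36.5 CPM, and Rfx7 was high in KO replicate 4 at 40.03 CPM, against 34.1 to 34.8 CPM.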

How the results depend on the processing

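Over 16 alternatives, all 10 genes kept a log2 fold change above 0 and none was called. Single libraries moved Prox1 between 0.066 and 0.14 and C1ql2 between 0.047 and 0.20. The median of the 10 was 0.15 to 0.21, and the smallest single value was 0.025, for Dsp without KO replicate 3. The lowest adjusted p of any of the 10 was 0.283, for Npnt without KO replicate 4. The number of genes called over the whole table was 5 with DESeq2, 1 with the replicate block, and 0 to 1 when a library was left out (1 without KO replicate 4 or WT replicate 1, 2 or 3); 0 genes passed an adjusted p of 0.1. Dclk3 was called lower in KO with DESeq2 (log2 fold change -1.79) and with the replicate block (-1.76), and lay between -1.88 and -1.54 with a library left out, being called without WT replicate 2. Genes at an unadjusted p under 0.05 numbered 1000, but 640 without KO replicate 2, 1777 without KO replicate 4 and 556 without WT replicate 4. The cause was not tested. Whether same-numbered libraries shared a litter or a batch is not stated. Their deviations from the group means correlated at 0.14, 0.12, -0.22 and -0.01. The highest values with another number were 0.19, 0.04, 0.14 and 0.13. These few correlations cannot decide the question. Without WT replicate 2, an alternative added after its values were seen, the KO and WT ranges were apart for 3 of the 10 genes in place of 2, Glis3 joining by 18.52 CPM in KO replicate 2 against 18.51 CPM in WT replicate 1. Of the 8 genes most like the 10, 5 were in the top 100 by Spearman correlation. The lowest count of any of the 10 genes in a library was 45, and the precision rests on 4 libraries a group.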
